A study of Mus musculus with 12 samples.

Results

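Complement genes were read in fat pads of 4 groups of female C57BL/6 mice, all probe sets being taken whose platform gene symbol is one of 9 complement genes: Cfd (adipsin), Cfb, C3, C2, C4b, C1qa, C1qb, C1qc and C3ar1. Of the 9, 6 could be read, Cfb, C2, C1qa, C1qb, C1qc and C3ar1, through 12 probe sets, among 18195 genes in all. Cfd and C3 have no probe set in the platform annotation used here, and the only probe set of C4b also names its near-identical copy C4a, so these 3 genes were not analysed here. The mice were wild type or p47phox null, on a casein diet (the control diet) or a high fat diet that began on postnatal day 28 and ran for 13 weeks. Crossing the genotypes with the diets gave 4 groups, with 3 pools of abdominal fat pads each and 1 Affymetrix array per pool. The labels name the null line by its genotype alone; how it was made and how many mice entered a pool are not given in the sources used here. The deposited values, taken as log2, have a median of 0 over the 12 arrays for every probe set, and the step that centred them is not given in the sources used here. They give differences between pools and no expression level, and the levels of different genes cannot be set against each other.

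Complement is a cascade of plasma proteins that marks targets for uptake by phagocytes, draws in leukocytes and lyses membranes. The classical pathway begins when C1q, built from the chains of C1qa, C1qb and C1qc, binds antibody or a cell surface, upon which the proteases C1r and C1s cleave C4 and C2 to form a convertase that splits C3. In the alternative pathway factor D (Cfd) cleaves factor B (Cfb) bound to C3b, and the resulting convertase amplifies the deposition of C3b. The fragment C3a signals through the receptor encoded by C3ar1. In adipose tissue factor D is made by adipocytes, and C1q and the C3a receptor are typical products of tissue macrophages. C1qb, C1qc and C1qa lie next to each other on mouse chromosome 4, and Cfb and C2 are direct neighbours on chromosome 17.

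Promoters are shown for the measured members whose sequence was available here. RefSeq, in the build GRCm38.p6, gave windows from 250 bases before to 50 bases after the start site for 3 of the 6 genes, each on the minus strand. They are C1qb at chr4:136886151-136886450, C1qc at chr4:136892865-136893164 and C3ar1 at chr6:122856108-122856407. Capitals mark the motif GAGGAA, the core of the box bound by the myeloid factor PU.1, and the AP-1 motif TGACTCA, searched on both strands; the marked stretches do not overlap.
C1qb: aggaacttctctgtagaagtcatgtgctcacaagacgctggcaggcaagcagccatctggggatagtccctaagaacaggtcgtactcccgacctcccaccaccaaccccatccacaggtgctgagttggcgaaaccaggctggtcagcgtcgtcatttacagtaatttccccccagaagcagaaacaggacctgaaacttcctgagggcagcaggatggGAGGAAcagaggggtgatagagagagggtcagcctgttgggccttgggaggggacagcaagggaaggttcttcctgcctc
C1qc: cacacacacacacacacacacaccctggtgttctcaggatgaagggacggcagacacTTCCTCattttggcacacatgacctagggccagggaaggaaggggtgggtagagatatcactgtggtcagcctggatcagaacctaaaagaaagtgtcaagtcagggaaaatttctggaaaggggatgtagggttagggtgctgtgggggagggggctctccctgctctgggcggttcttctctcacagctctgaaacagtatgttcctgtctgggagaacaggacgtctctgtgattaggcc
C3ar1: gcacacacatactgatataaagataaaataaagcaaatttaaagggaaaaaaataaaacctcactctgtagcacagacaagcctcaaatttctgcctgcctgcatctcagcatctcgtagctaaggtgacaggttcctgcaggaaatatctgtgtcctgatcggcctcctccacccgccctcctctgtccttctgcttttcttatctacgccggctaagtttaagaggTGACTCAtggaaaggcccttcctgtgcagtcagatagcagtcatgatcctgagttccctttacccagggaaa
GAGGAA occurred 1 time in the C1qb window, starting at base 221, and 1 time in the C1qc window, on the opposite strand, starting at base 58. TGACTCA occurred 1 time in the C3ar1 window, starting at base 229. Of 32851 windows of 300 bases, 28.3% held GAGGAA and 5.2% held TGACTCA. The matches describe the sequences and are no evidence of binding.

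The genotype was checked first through Ncf1, which encodes p47phox: the mean of its probe sets was 0.075 to 0.85 among the wild type pools, and -0.29 to -0.19 among the null pools. Markers of other tissues stood apart in 3 pools, taken as a liver or skeletal muscle median above 3. The median of the liver markers was 4.38 in wild type casein pool 3, and the skeletal muscle median reached 4.58 in pool 2 of the wild type and 3.77 in pool 1 of the null high fat diet group. Under that cutoff the skeletal muscle median was still 2.93 in wild type casein pool 1 and 1.95 in null casein pool 1. It lay from -1.88 to 0.65 in the remaining pools. No pair of arrays held identical values. Genes were tested with limma in 1 fit of the 4 groups, and a gene is called when its Benjamini-Hochberg adjusted p over the 18195 genes is under 0.05. Nothing in the labels gives a batch. The p-values measure the spread between pools, and a batch that coincided with a group could not be told apart from it.

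The first question was what the high fat diet changes in complement expression in wild type fat. The 3 C1q chains and C3ar1 had positive estimates, with C1qb the largest, but none of the 6 genes was called. C1qb, the B chain of C1q, read -0.38, -0.21 and -0.42 in pools 1, 2 and 3 of wild type mice on casein and -0.020, 0.26 and 0.50 in pools 1, 2 and 3 of those on the high fat diet. All 3 high fat diet pools lay above all 3 casein pools. The difference was 0.58 ± 0.14 (n = 3 pools in each group, adjusted p = 0.517 by limma). Here and below the value after ± is the SE, whose spread limma estimated over all 4 groups. The 95% confidence interval, not adjusted for the number of genes, was from 0.26 to 0.90. The 3 probe sets of C1qb gave 0.50, 0.45 and 0.80.

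C1qa, the A chain, was at -0.38, -0.0073 and -0.11 in the wild type casein pools and at -0.050, 0.037 and 0.54 in the wild type high fat diet pools. The groups overlapped, since high fat diet pool 1 lay below casein pool 2, and the difference was 0.34 ± 0.15 (adjusted p = 0.652). C1qc, the C chain, was at -0.36, 0.16 and -0.059 on casein and at -0.0089, 0.35 and 0.54 on the high fat diet, again with an overlap, and differed by 0.38 ± 0.16 (adjusted p = 0.652). C3ar1, the receptor of C3a, was at -0.20, 0.23 and 0.038 on casein and at -0.17, 0.22 and 1.0 on the high fat diet. Its difference was 0.33 ± 0.23 (adjusted p = 0.752), and 0.0023 without high fat diet pool 3.

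Cfb, the protease zymogen of the alternative pathway, was at 0.16, 0.0067 and 0.21 on casein and at -0.026, 0.18 and 0.87 on the high fat diet. The difference was 0.22 ± 0.31 (adjusted p = 0.874) and -0.049 without high fat diet pool 3. C2, its classical pathway counterpart, stayed between -0.077 and 0.033 in all 6 wild type pools, with a difference of -0.011 ± 0.14 (adjusted p = 0.99). By limma 0 of the 6 members were called, as were 0% of all genes, and 3 of the 6, the C1q chains, had an unadjusted p under 0.05, against 7.61% of all genes. The pools of the diets did not overlap for 1 of the 6, against 11.9% of all genes. The median difference was 0.33 over the 6 members and 0.0010 over all genes. Without wild type high fat diet pool 3 the differences of C1qa and C1qb were 0.16 and 0.46, and without wild type casein pool 1 that of C1qc was 0.24.

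**Figure D1:**
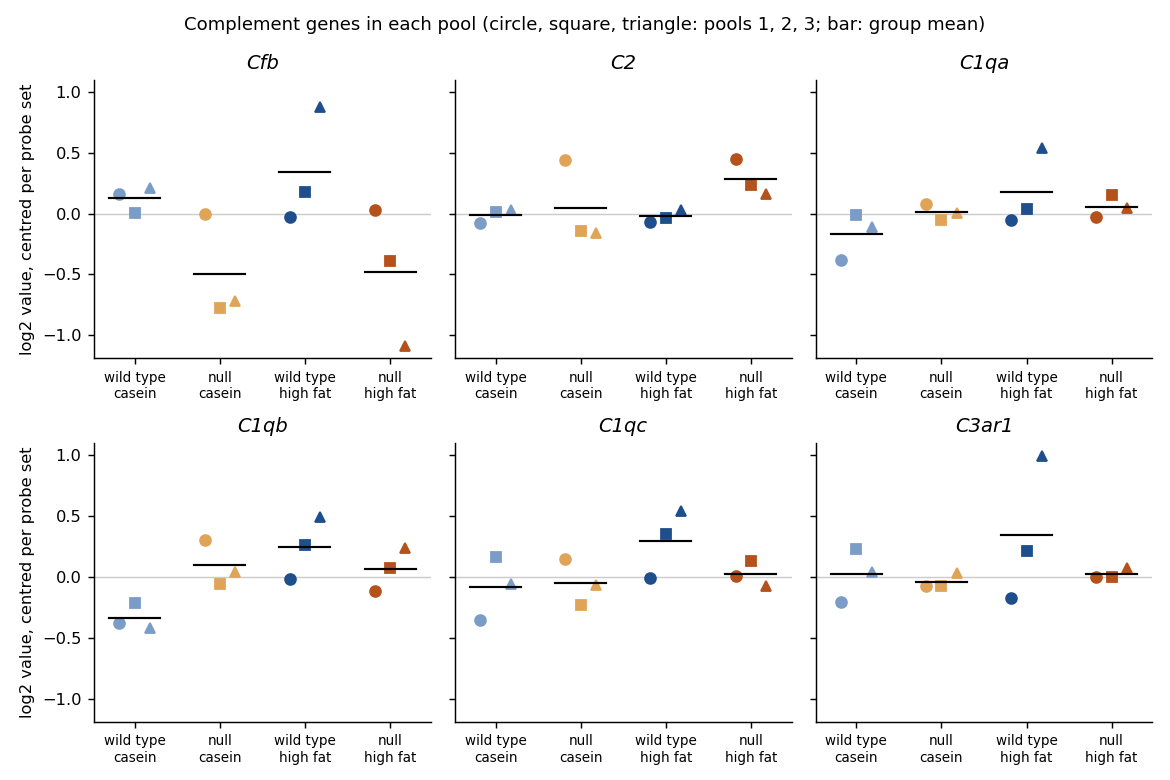
Values of the 6 complement genes in each of the 12 pools (y axis: log2 value, centred per probe set; x axis: the 4 groups). Symbols are pools and bars are group means. C1qb in wild type casein pools sits between -0.42 and -0.21, below the pools of the other 3 groups. The highest Cfb, C1qa, C1qb, C1qc and C3ar1 values are those of wild type high fat diet pool 3.

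Wild type high fat diet pool 3 also had the highest macrophage marker median. The median of 20 macrophage markers was -0.096, 0.022 and -0.058 in pools 1, 2 and 3 of wild type mice on casein, and -0.049, 0.080 and 0.59 in those of the high fat diet. In the null pools it ran from -0.11 to 0.075. Of the 20 markers, 17 had a positive estimate in wild type pools on the high fat diet and 0 were called, with a median difference of 0.23. Other lists moved alike in this comparison: 11 of 11 endothelial markers had a positive estimate (median 0.38), as had 11 of 13 fibroblast and progenitor markers (median 0.24), with 0 called in either list. In fat pads, more cells of a type and more RNA per cell cannot be told apart, and the part of these cell types in the C1q values was not tested.

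Over the 12 pools C1qa followed the macrophage median with Pearson's r = 0.90 (Spearman's rho = 0.91), C1qc with r = 0.83 (rho = 0.85), C1qb with r = 0.70 (rho = 0.78) and C3ar1 with r = 0.94 (rho = 0.65). Without the 2 pools farthest from the middle of the macrophage median, r over the remaining 10 was 0.86 for C1qa, 0.86 for C1qc, 0.77 for C1qb and 0.62 for C3ar1. Cfb had r = 0.56, which turned to -0.26 over those 10 pools, so that its relation rested on the 2 pools left out. C2 had r = 0.089. The macrophage list was not the sole one with a high r. C1qb had r = 0.69 with the fibroblast and progenitor median and C1qc had r = 0.78 with the endothelial median. C3ar1 had r = -0.85 with the mesothelial median. Without the 2 pools farthest on the list in question, a choice that can differ between lists, these became 0.26, 0.43 and -0.40. Other values rose in this way. With the lymphocyte median r went from 0.082 to 0.76 for C3ar1, above its 0.62 with the macrophage median. It went from -0.071 to 0.70 for C1qa and from 0.0093 to 0.71 for C1qc. With the mature adipocyte median C1qc went from 0.41 to 0.72. Cfb stood closer to other lists than to macrophages, with r = 0.78 for endothelial, 0.72 for mature adipocyte, -0.75 for mesothelial and -0.74 for reproductive tract markers. These are descriptions across pools, where all values of a pool share 1 array and the groups differ.

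**Figure D2:**
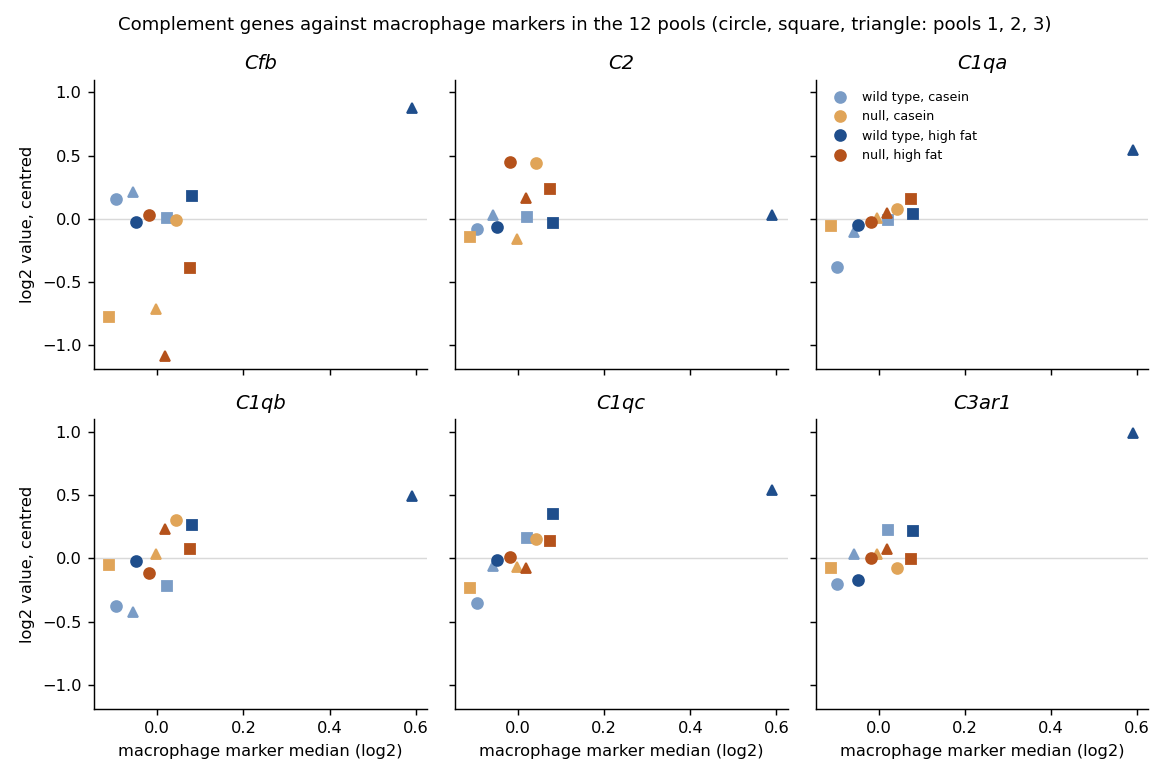
Value of each complement gene (y axis, log2, centred) against the median of 20 macrophage markers (x axis, log2) in the 12 pools, coloured by group. Wild type high fat diet pool 3 lies alone at 0.59 on the x axis; without the 2 pools farthest from the middle, r is 0.77 to 0.86 for the C1q chains, -0.26 for Cfb and 0.32 for C2.

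In null mice the diet differences of the 6 genes ran from -0.032 to 0.24, and none was called. C1qb was at 0.30, -0.054 and 0.038 in null casein pools 1, 2 and 3 and at -0.12, 0.073 and 0.23 in null high fat diet pools 1, 2 and 3. The groups overlapped, and the difference was -0.032 ± 0.14 (adjusted p = 1.0), with an interval from -0.35 to 0.29. C1qa differed by 0.048 ± 0.15, C1qc by 0.073 ± 0.16, C3ar1 by 0.064 ± 0.23 and Cfb by 0.019 ± 0.31. C2 had the largest estimate, 0.24 ± 0.14; its pools were at 0.44, -0.14 and -0.16 on casein and at 0.45, 0.23 and 0.16 on the high fat diet, and without null casein pool 1 the difference was 0.43. By limma 0 of 6 members were called, as were 0% of all genes, and 0 had an unadjusted p under 0.05, against 4.0% of all genes. The pools of the diets overlapped for all 6 members, while 10.6% of all genes did not overlap.

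The interaction, which subtracts the wild type diet difference from the null one, asked whether the diet response of these genes differed between the genotypes. It was -0.62 ± 0.20 for C1qb (limma adjusted p = 0.79), -0.29 ± 0.21 for C1qa, -0.31 ± 0.23 for C1qc and -0.26 ± 0.33 for C3ar1. It was -0.20 ± 0.44 for Cfb and 0.25 ± 0.20 for C2. By limma 0 of 6 members passed, as did 0% of all genes, and 1, C1qb, had an unadjusted p under 0.05, against 6.12% of all genes. A difference in diet response between the genotypes is therefore not shown for any of the 6. Leaving out pool 3 of the wild type high fat diet group turned C3ar1 to 0.061 and Cfb to 0.069, and leaving out null high fat diet pool 3 turned Cfb to 0.10.

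**Figure D3:**
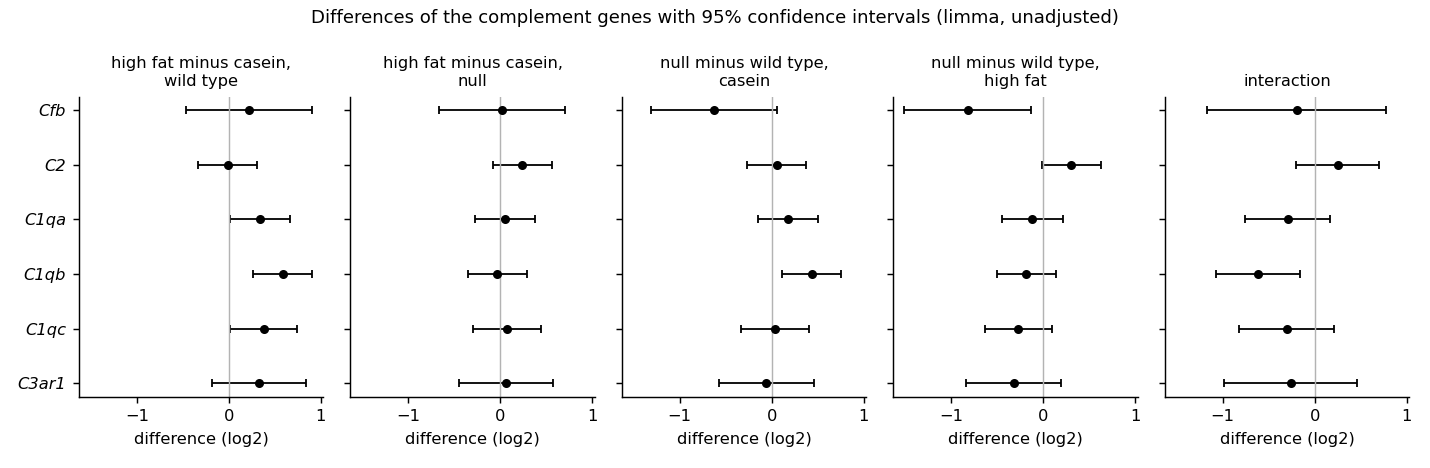
Difference of each complement gene (x axis, log2) in the 4 simple comparisons and the interaction; points are limma estimates and bars 95% confidence intervals not adjusted for the number of genes. For the diet in wild type pools the intervals of C1qb (0.26 to 0.90), C1qa (0.014 to 0.67) and C1qc (0.013 to 0.74) lie above 0. That of C1qb for the genotype on casein (0.11 to 0.75) does too. Those of Cfb for the genotype on the high fat diet (-1.51 to -0.14) and of C1qb for the interaction (-1.07 to -0.16) lie below 0. None passed after adjustment.

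On casein the genotypes were compared to ask what the loss of p47phox alone does. C1qb was higher in every null pool than in every wild type pool, with a difference of 0.43 ± 0.14 (limma adjusted p = 0.567), 0.33 without null casein pool 1. Cfb was lower in every null pool: its null casein pools were at -0.0067, -0.78 and -0.71, against 0.0067 as the lowest wild type casein pool. Cfb differed by -0.62 ± 0.31 (adjusted p = 0.621), and the gap between the groups was as narrow as these 2 nearest pools. C1qa differed by 0.18 ± 0.15, C2 by 0.056 ± 0.14, C1qc by 0.034 ± 0.16 and C3ar1 by -0.059 ± 0.23. Of the 6, 2 did not overlap, against 12% of all genes; 0 were called, as were 0% of all genes, and 1, C1qb, had an unadjusted p under 0.05, against 8.12%. The macrophage median overlapped between these groups, at -0.096 to 0.022 in wild type and -0.11 to 0.042 in null casein pools.

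On the high fat diet, where many genes differed between the genotypes, no complement member was called either. Cfb was at 0.034, -0.39 and -1.08 in null pools 1, 2 and 3, against -0.026, 0.18 and 0.87 in wild type pools 1, 2 and 3. Null pool 1 lay above wild type pool 1, so the groups overlapped. The difference was -0.82 ± 0.31 (limma adjusted p = 0.133), 1.77-fold lower, and -0.52 without null high fat diet pool 3. Weighting the arrays gave -0.71 (adjusted p = 0.0297), in a fit that called 5116 of all genes, against 1077 without weights. The adjusted p of Cfb over 19 alternatives spanned 0.0297 to 0.997. C2 went the other way. Its null pools, at 0.45, 0.23 and 0.16, all lay above the wild type pools, at -0.067, -0.036 and 0.033, with a difference of 0.30 ± 0.14 (adjusted p = 0.222).

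The C1q chains had negative estimates on this diet, -0.12 ± 0.15 for C1qa, -0.18 ± 0.14 for C1qb and -0.27 ± 0.16 for C1qc, and C3ar1 had -0.32 ± 0.23. Without wild type high fat diet pool 3 that of C1qa turned to 0.064 and that of C3ar1 to 0.0024; C1qb ran from -0.32 without wild type high fat diet pool 1 to -0.058 without pool 3. By limma 0 of 6 members were called, against 5.92% of all genes, and 1, Cfb, had an unadjusted p under 0.05, against 24.9% of all genes. Pools did not overlap for 1 of 6, C2, against 32.2% of all genes. The members' median difference was -0.23, and that of all genes -0.031. Of the 20 macrophage markers 0 were called in this comparison, with a median difference of -0.25.

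Averaged over the diets, Cfb was the member nearest to a call between the genotypes. Its difference was -0.72 ± 0.22 (limma adjusted p = 0.0704), from a range of -0.026 to 0.87 in 6 wild type pools and of -1.08 to 0.034 in 6 null pools. It was called when null casein pool 1 was left out (-0.85, adjusted p = 0.0422), when pool 1 of the null high fat diet group was left out (-0.85, adjusted p = 0.0357) and under array weighting (-0.76, adjusted p = 0.0132), and in none of its other 15 alternatives. Those fits called 1567, 1783 and 4009 of all genes, in that order, against 1368 in the main fit. By limma 0 of 6 members passed, against 7.52% of all genes, and 1, Cfb, had an unadjusted p under 0.05, against 25.6%. The median of 20 reproductive tract markers (ovary, oviduct and uterus) was apart by genotype as well: on the high fat diet it lay from -0.88 to -0.59 in wild type and from 0.14 to 0.84 in null pools, where 7 of 20 were called higher. On casein it was -0.87 to 0.25 for wild type and -0.062 to 0.32 for null. Of 18 mature adipocyte markers 5 were called lower in the null high fat diet group. With the liver, muscle and reproductive tract medians as covariates the averaged difference of Cfb was -0.41 (limma adjusted p = 0.981). For the genotype on the high fat diet that fit called only 2 of all genes, and the reproductive tract median itself separated the genotypes there. The part of those tissues in the Cfb values was not tested further. The diet averaged over genotypes gave positive estimates for all 6 members, from 0.11 for C2 to 0.28 for C1qb, with 0 called by limma, against 0.00550% of all genes, and 1, C1qb, with an unadjusted p under 0.05, against 5.23%.

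The neighbouring genes Cfb and C2 were set side by side after their values were seen. The log2 value of Cfb minus that of C2 in the same pool was 0.24, -0.0051 and 0.18 in pools 1, 2 and 3 of wild type mice on casein and 0.040, 0.21 and 0.84 in those on the high fat diet. In null mice it was -0.45, -0.63 and -0.56 on casein and -0.42, -0.62 and -1.25 on the high fat diet. All 6 null pools lay below all 6 wild type pools, although neither gene separated the genotypes over both diets by itself. The same separation was found for 3.47% of 14185 pairs of adjacent genes and for 3.07% of single genes. Within groups the values of Cfb and C2 varied together (r = 0.75 over the 12 pools after the group means were removed), while r without that removal was 0.085. The pair was picked for its opposite genotype differences, so the separation restates them. Because each probe set is centred, the values do not tell which gene is more abundant.

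**Figure D4:**
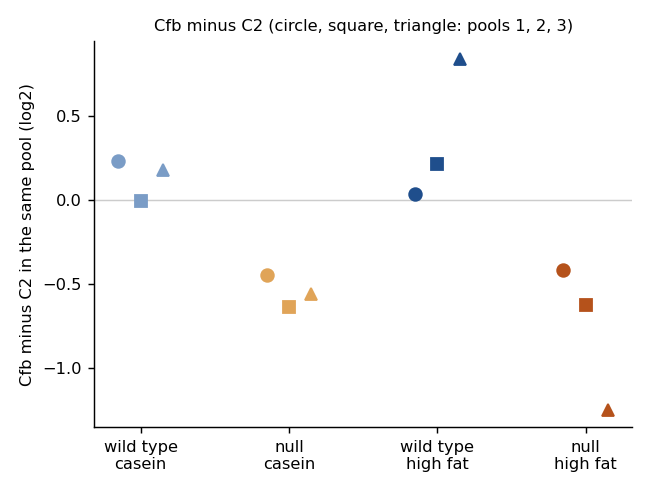
Cfb minus C2 in the same pool (y axis, log2) in the 4 groups, 1 point per pool. The wild type pools sit between -0.0051 and 0.84 and the null pools between -1.25 and -0.42, on both diets.

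Members differed in how much they varied. The standard deviation within groups was 0.43 for Cfb, at the 94.3 percentile of all genes, and 0.32 for C3ar1, at the 90.4 percentile; it was 0.19 for C1qb, 0.19 for C2, 0.20 for C1qa and 0.22 for C1qc, against a median gene of 0.14. The C1q chains varied together, with r = 0.81 between C1qa and C1qb, 0.85 between C1qa and C1qc and 0.70 between C1qb and C1qc, and C3ar1 had r = 0.84 with C1qa. After group means were removed these were 0.71, 0.84, 0.72 and 0.91. The probe sets of a gene had r from 0.88 to 0.98 for C2, from 0.65 to 0.90 for C1qb and from 0.74 to 0.84 for C3ar1.

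Among all genes, those most like C3ar1 over the 12 pools were Itgax (r = 0.95), Myo1f (0.94), Tyrobp (0.94), Lipf (0.93) and Themis2 (0.93). Itgax encodes a chain of a complement receptor on myeloid cells, and Tyrobp a signalling adaptor of myeloid receptors. Tyrobp was also among the 5 genes most like C1qa, with Aldh3b2 (r = 0.94), Trmt10a (0.93), Tyrobp (0.91), Tapbp (0.89) and Serf2 (0.89). C1qc was most like Fcrls (0.93), Rassf4 (0.92), Krt79 (0.92), Bola1 (0.92) and Sesn2 (0.92), and C1qb most like Myl12a (0.91), S100a6 (0.90), Atxn10 (0.90), Cdkn1a (0.90) and Lrp1 (0.89). For Cfb they were H2ac19 (0.95), Gcc2 (0.95), Ffar2 (0.94), Slitrk4 (0.94) and Nedd1 (0.93), and for C2 they were Agt (0.92), Defb5 (0.90), Poli (0.89), Ccnl2 (0.88) and Ifnz (0.86). They were picked as the highest r of all genes, and the pools share their arrays and groups.

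Of 44 other complement genes, 37 had a probe set of their own, and on the high fat diet 4 of them were called for genotype, 3 higher and 1 lower in null. Clu, clusterin, blocks assembly of the membrane attack complex. It was at -1.32, -1.50 and -1.49 in wild type pools and at -0.19, 0.73 and 0.94 in null pools. Clu rose by 1.93 ± 0.49 (limma, adjusted p = 0.0468). That SE also holds the spread of the casein groups: the SD of Clu was 1.21 in wild type casein pools. On the high fat diet it was 0.10 in wild type and 0.60 in null pools. Colec11, a collectin that starts the lectin pathway, rose by 0.86 ± 0.21 (adjusted p = 0.0413), from -0.40 to -0.27 in wild type pools to 0.34 to 0.81 in null pools. C1qbp, a mitochondrial protein named for its binding to C1q, rose by 0.34 ± 0.085 (adjusted p = 0.0441), from -0.32 to -0.10 to 0.074 to 0.23. Cd59a, a membrane-anchored inhibitor of the attack complex, fell by 0.93 ± 0.24 (adjusted p = 0.0468), from 0.24 to 0.98 in wild type pools to -0.78 to -0.10 in null pools. The groups did not overlap for any of the 4, as was so for 32.2% of all genes.

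The 4 calls of 37 stand against the 5.92% of all genes called in this comparison. Leaving out null casein pool 2, any pool of the wild type high fat diet group, or pool 2 or 3 of the null high fat diet group took the count to 0. The calls over all genes fell in the same fits, from 1077 to 456 when null casein pool 2 was omitted. They were 170, 210 and 32 when pool 1, 2 or 3 of the wild type high fat diet group was omitted, and 0 when pool 2 or 3 of the null high fat diet group was. Leaving out null casein pool 3 gave 1, a gene other than these 4, with 781 called over all genes. Clu was also lost without null casein pool 1 (adjusted p = 0.0562), and Cd59a without wild type casein pool 3 (0.055). The calls of Colec11 and C1qbp depended on the choice of probe set as well. 1 alternative took the probe set of the highest mean, a mean of centred values that does not rank probe sets by level. Read by that probe set alone, Colec11 fell to 0.47 (limma adjusted p = 0.0609) and was not called. C1qbp was not called there either, at 0.47 (adjusted p = 0.0693), while Clu and Cd59a stayed called. With the tissue medians as covariates the count was 0, in a fit that called 2 of all genes, and Clu turned to -0.13, while over its 19 alternatives the adjusted p ran from 0.0014 to 0.997 for Clu, from 0.0043 to 0.984 for Colec11, from 0.004 to 0.997 for Cd59a and from 0.0029 to 0.907 for C1qbp. The median of 10 mesothelial markers, -1.35 to 0.24 in wild type and 0.30 to 0.54 in null pools on this diet, separated the same pools. So did the reproductive tract median given above. The endothelial median, 0.24 to 0.58 in wild type and -0.26 to -0.0085 in null pools, did so the other way. The mature adipocyte median, 0.17 to 0.19 and -0.52 to -0.0071, did likewise, as did the fibroblast and progenitor and the lymphocyte medians. Of 11 endothelial markers 3 were called lower in null. The part of these lists in the 4 genes was not tested beyond the covariate fit. Averaged over diets, Clu (1.35 ± 0.35, adjusted p = 0.0432) and Cd59a (-0.63 ± 0.17, adjusted p = 0.0485) were called. With pools left out in turn their adjusted p ran from 0.0273 to 0.105 and from 0.0309 to 0.117. In those fits Clu stayed called only without wild type casein pool 1, 2 or 3 or null high fat diet pool 1. Cd59a stayed called only without pool 1 of the wild type casein, null casein or null high fat diet group. With the tissue medians as covariates Clu was at 0.012 and Cd59a at -0.087 (limma adjusted p = 0.999 for both). With the pool number as a block their adjusted p was 0.0556 and 0.0849. Clu was not called by the probe set of the highest mean (0.0503), nor Cd59a without the 3 pools that stand apart (0.085).

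In the other comparisons 0 of the 37 genes were called by limma. Those at an unadjusted p under 0.05 were 6 of 37 for the diet in wild type (7.61% of all genes), 1 of 37 for the diet in null (4.0%) and 1 of 37 for the genotype on casein (8.12%). They were 3 of 37 for the interaction (6.12%) and 4 of 37 for the diet averaged over genotypes (5.23%). The largest diet estimate in wild type was negative, that of Cfi, a regulator, at -1.73 ± 0.85 (limma adjusted p = 0.672), with overlapping pools. The largest positive one was that of C6, a component of the membrane attack complex. C6 was at -0.96, -0.022 and 0 on casein and 0.97, 0.26 and 1.24 on the high fat diet. Its pools did not overlap, as was so for 11.9% of all genes, and the difference was 1.15 ± 0.30 (limma adjusted p = 0.531). In null pools C6 differed by 0.12 ± 0.30, and its interaction was -1.03 ± 0.42 (adjusted p = 0.79). The proteases C1ra and C1s1, which act directly after C1q, had estimates of 0.47 ± 0.16 and 0.39 ± 0.18 for the diet in wild type pools and 0.34 ± 0.16 and 0.34 ± 0.18 in null pools. Serping1, the C1 inhibitor, had 0.47 ± 0.14 in wild type and 0.24 ± 0.14 in null pools. Its high fat diet pools did not overlap its casein pools in either genotype (11.9% of all genes in wild type, 10.6% in null). Averaged over genotypes the estimates were 0.40, 0.36 and 0.35, with adjusted p from 0.717 to 0.879.

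Many complement genes that the liver secretes stood highest in 1 pool, wild type casein pool 3, where the median of 18 liver markers was 4.38 against -1.18 to 1.24 in the other 11 pools. Of the 37 other complement genes, 15 had their highest value of the 12 pools there (40.5%, against 10.3% of all genes) and 13 stood above 1 (35.1%, against 2.23%). Mbl2, a mannose-binding lectin, was at 4.45, C4bp, a regulator of C4b, at 3.85, Hc, which encodes complement C5, at 3.41, and C8g and C9, of the membrane attack complex, at 3.30 and 3.30. Cr2, a complement receptor of B cells, was at 2.29 in that pool, where the lymphocyte marker median was 1.42. None of the 6 members was highest there: in that pool Cfb was at 0.21, C2 at 0.031, C1qa at -0.11, C1qb at -0.42, C1qc at -0.059 and C3ar1 at 0.038. Differences of the liver-type genes that involve the wild type casein group therefore include this pool, and its origin was not tested.

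**Figure D5:**
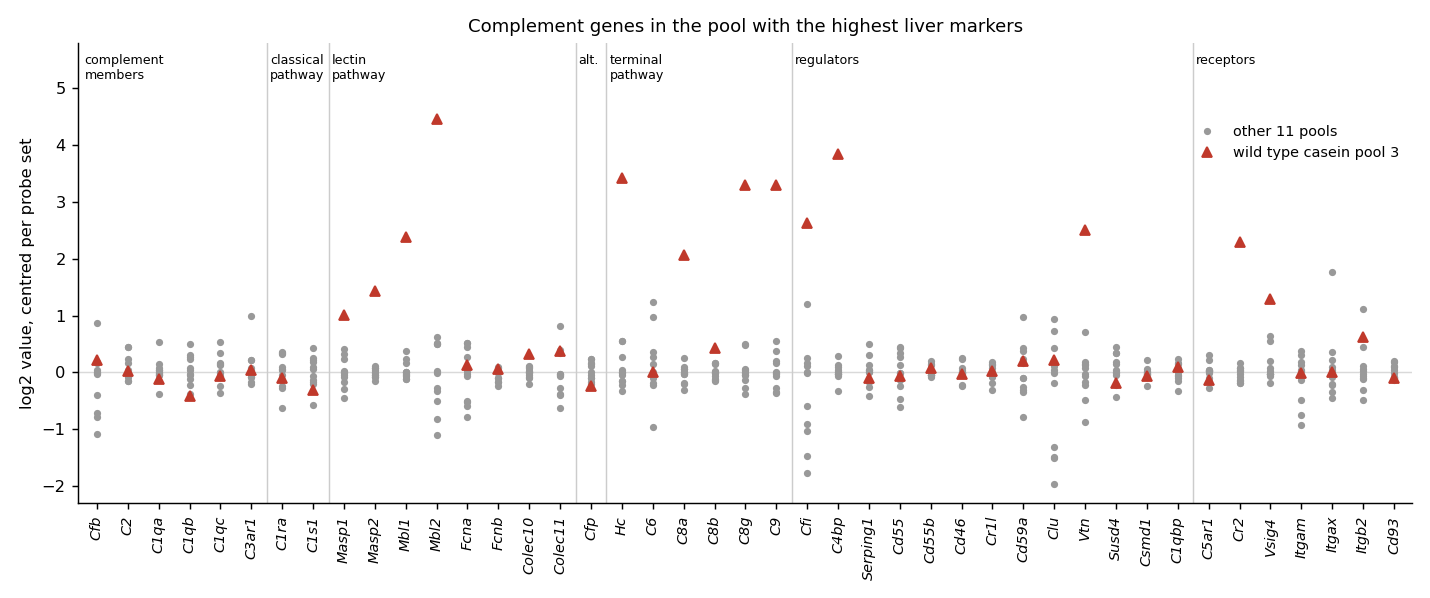
The 6 complement members and the 37 other complement genes, ordered by role (x axis; alt. is the alternative pathway), with the value in each pool (y axis, log2, centred per probe set). Red triangles are wild type casein pool 3 and grey points the other 11 pools; the triangle reaches 4.45 for Mbl2 and lies among the grey points or at their edge for the 6 members.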

How the data were processed

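RNA from 12 pools of fat pads was measured on 12 arrays of 45101 probe sets, from 8 µg of total RNA per the labels' protocols, whose extraction text names rats although the organism is given as mouse. The submitters' processing notes name RMA and GCOS; versions and settings are not given in the sources used here. The values deposited by the authors were taken as log2 values, a base assumed from RMA, and were found centred to a median of 0 per probe set; who centred them is not stated. The platform annotation gives 1 gene for 34958 probe sets, several for 932, and 9211 are unnamed here; only the first kind was used, and RefSeq (GRCm38.p6) gave current symbols for 34754 of them. A gene's value is the mean of its probe sets. No filter on low values was used, since the centred values hold no levels.

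All genes were fitted in R 4.3.3 by limma 3.58.1 (functions lmFit, contrasts.fit and eBayes; 4 group means, 8 residual and 2.5 prior degrees of freedom), with Benjamini-Hochberg adjustment over 18195 genes, a threshold of 0.05 and 7 comparisons; the procedure was tested on simulated data. The members and gene lists were chosen with earlier results of these data known. The genes named are the 6 measured members, the other complement genes past the threshold, for each member the 5 genes with the highest r over the pools, and Ncf1. Cfi, C6, C1ra, C1s1, Serping1 and the genes of the liver-rich pool were chosen after their values were seen. Alternatives were another choice of probe set, every probe set by itself, quantile normalization once more, array weights, tissue medians as covariates, omitted pools, fits of the groups compared alone and the pool number as a block. The number of arrays limits the precision.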

Additional observations from a re-analysis of the deposited data

How the results depend on the processing

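Over the alternatives run the count of called members was 0 in every one for the diet in wild type and in null pools, the genotype on casein, the interaction and the diet averaged over genotypes. It was 1, Cfb, with array weights for the genotype on the high fat diet (5116 called over all genes) and for the genotype averaged over diets (4009). For the latter it was from 0 to 1 when pools were left out in turn. The estimation of array weights stopped before its tolerance was reached. Of 843 member values under alternatives 794 kept direction and side of the threshold, 4 passed it, all of Cfb, and 45 changed sign, all of uncalled differences. The count of the 4 other complement genes on the high fat diet was 1 after quantile normalization once more (655 called over all genes), 14 with array weights (5116), 0 with the medians of other tissues as covariates (2), 0 once the 3 pools that stand apart were left out (440), 1 with the replicate block (542), and from 0 to 4 when pools were left out in turn. These alternatives for that count were added after seeing the data. The pool numbers were not taken to pair the samples: of 18 pairs of same-numbered pools, 3 had a correlation of deviations over 0.1, with a range from -0.61 to 0.59, and the replicate block called 542 genes on the high fat diet in place of 1077. The count of members stayed at 0 under the block in all 7 comparisons.

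Sign changes came from the following fits. With other probe sets, for the diet in null pools C1qb was at 0.081 (by the probe set of the highest mean, or by that probe set alone) and C3ar1 at -0.0040, C2 for the diet in wild type at 0.021 and C3ar1 for the genotype on casein at 0.15. After quantile normalization the interaction of Cfb was 0.21. With array weights C1qb for the diet in null pools was at 0.066, C2 and C1qc for the genotype on casein at -0.071 and -0.095, and the interaction of Cfb at 0.091. With tissue medians as covariates C3ar1 for the genotype on casein was at 0.10, C1qa, C1qc and Clu for the genotype on the high fat diet at 0.16, 0.24 and -0.13, and C1qc and C3ar1 averaged over diets at 0.25 and 0.045. Without the 3 pools that stand apart C2 for the diet in wild type was at 0.016, and Cfb and C1qb for the diet in null pools at -0.24 and 0.058. When each pool was left out in turn, ranges that crossed 0 were, for the diet in wild type, -0.049 to 0.40 for Cfb and -0.044 to 0.010 for C2. For the diet in null pools they were -0.24 to 0.32 for Cfb, -0.0018 to 0.090 for C1qa, -0.12 to 0.072 for C1qb and -0.019 to 0.17 for C1qc. For the genotype on casein they were -0.14 to 0.16 for C2, -0.10 to 0.16 for C1qc and -0.17 to 0.044 for C3ar1, and on the high fat diet -0.23 to 0.064 for C1qa and -0.58 to 0.0024 for C3ar1. For the interaction they were -0.45 to 0.10 for Cfb and -0.52 to 0.061 for C3ar1, for the diet averaged over genotypes -0.015 to 0.27 for Cfb, and for the genotype averaged over diets -0.027 to 0.12 for C1qa. Except where an alternative holds fewer pools, the cause of these changes was not tested. Signal over background is lost in the centred values, so members near the detection limit cannot be told from others.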
